A study of Mus musculus with 23 samples.

Results

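The 44 collagen chain genes were every row of the count table whose symbol is Col, a type number, the letter a and a chain number, out of 24062 genes in the table. They were grouped by the kind of assembly their proteins form. Fibrillar chains numbered 11 (Col1a1, Col1a2, Col2a1, Col3a1, Col5a1, Col5a2, Col5a3, Col11a1, Col11a2, Col24a1 and Col27a1). The type IV chains of basement membranes numbered 6 (Col4a1 to Col4a6). The other 27 were the type VI beaded filament chains (Col6a1 to Col6a6), chains that sit on fibrils (Col9a1, Col9a2, Col9a3, Col12a1, Col14a1, Col16a1, Col19a1, Col20a1 and Col22a1), Col15a1 and Col18a1, the network chains Col8a1, Col8a2 and Col10a1, the anchoring chain Col7a1, the membrane-spanning chains Col13a1, Col17a1, Col23a1 and Col25a1, and Col26a1 and Col28a1.

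Collagens are secreted proteins in which 3 chains wind into a triple helix, and glycine, the smallest residue, must recur at a fixed step along each chain for the helix to close. Types I, III and V form the cross-striated fibrils that carry load in tendon, in the sheaths of muscle and in the stroma of fat, where fibroblasts make most of them. Type IV forms a flexible net in the basement membrane around every muscle fibre, fat cell and blood vessel, and type VI forms fine filaments between fibrils and basement membranes. Fat cells are themselves wrapped in a basement membrane, and collagen VI is a major part of the matrix of fat.

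RNA was sequenced in whole gastrocnemius, a calf muscle, and whole fat (abbreviated IAT in the labels and not spelled out there) of mice aged 8 to 10 months on a mixed 129Sve/C57BL/6 background. The labels name no treatment and call the mice naturally aged. WT mice were wild type, HL1002P mice carried the H allele of BubR1 over an allele with the L1002P change (BubR1H/L1002P) and HH mice carried 2 H alleles (BubR1H/H). BubR1, encoded by Bub1b, is a spindle checkpoint protein, the H allele is known as hypomorphic, and the labels call both mutants progeroid models of MVA, mosaic variegated aneuploidy. There were 4 libraries in each group apart from HH muscle, which had 3. The labels do not say whether replicates are separate animals, so p-values measure the spread between these samples, which may be technical.

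The 11 muscle libraries held 34.1 to 55.3 M counts and the 12 fat libraries 22.6 to 58.8 M, and 42 to 44 and 40 to 44 of the 44 chains, respectively, had a count. Bub1b was lower in every mutant muscle library (0.181 to 0.520 CPM, TMM-normalised counts scaled to library size) than in every WT one (0.726 to 0.952). In fat Bub1b was 7.08 to 11.6 CPM in WT, 6.12 to 22.1 in HL1002P and 5.96 to 14.3 in HH, so it gave no check of the labels there, and genotype names in fat stand for the libraries labelled so. Fat-cell markers summed to 11729 to 42772 CPM in fat and 625.0 to 1383 in muscle. Several fat libraries stood apart. Epithelial markers (Epcam, keratins, Cdh1) summed to 442.7 to 1590 CPM in WT 3, WT 4, HL1002P 4, HH 2 and HH 4 and to at most 90.6 elsewhere, and muscle fibre markers to 4946 to 13452 CPM in WT 3, HL1002P 4 and HH 1 and to at most 1240.1 elsewhere. The 12 lymphocyte markers summed to 67.5 to 684.5 CPM in WT fat, 1346 to 3594 in HL1002P fat and 1659 to 3160 in HH fat, with no overlap between WT and either mutant. Some results in fat are therefore given with the epithelial or lymphocyte values beside them. The muscle fibre values are not repeated below, and their part in the fat results was not tested. Libraries also differed in sex transcripts. Fat WT 3, WT 4, HL1002P 4 and HH 4 and muscle WT 3, WT 4, HL1002P 3, HL1002P 4 and HH 3 held Xist, and the rest of each tissue held Y-linked transcripts. Every fat library with Xist was also among those with epithelial markers.

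The coding sequences differ between fibrillar and type IV chains. The stretch below is the start of the longest glycine-codon run of Col1a1 (chr11:94936224-94953042 for the gene, plus strand, GRCm38), codons 168 to 203, with the glycine codon that starts each triplet of the repeat in capitals and all other codons, glycine among them, in lower case. The Col4a1 stretch (gene at chr8:11198423-11312826, minus strand, GRCm38), codons 145 to 190, covers the end of its longest run, an interruption of 10 codons, and the next run. Both are coding strand sequences from GENCODE. They are shown because fibrillar chains hold a long unbroken repeat and type IV chains an interrupted one, which other chains can have as well.
Col1a1: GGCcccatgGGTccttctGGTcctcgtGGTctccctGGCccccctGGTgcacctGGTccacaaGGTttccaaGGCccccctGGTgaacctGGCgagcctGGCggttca
Col4a1: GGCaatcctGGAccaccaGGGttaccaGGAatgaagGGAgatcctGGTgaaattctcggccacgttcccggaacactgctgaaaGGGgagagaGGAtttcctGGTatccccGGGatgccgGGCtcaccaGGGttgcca

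Counted as consecutive codon triplets that start with a glycine codon, the longest run was 216 to 344 triplets in the 11 fibrillar chains (median 338), 39 to 66 in the 6 type IV chains and 23 to 113 in the 27 others. Type IV chains had 22 to 27 separate runs of at least 5 triplets, against 2 or 3 in a fibrillar chain and 2 to 21 in the others. Col24a1 and Col27a1 had the shortest fibrillar runs, 216 and 217 triplets. Many chain genes lie side by side. Col4a1 and Col4a2 start head to head on chromosome 8 with 22 overlapping bases, Col4a4 and Col4a3 on chromosome 1 with 71 bases between them, and Col4a6 and Col4a5 on the X chromosome with 1308. Col3a1 and Col5a2 end towards each other on chromosome 1, 24614 bases apart, and Col6a6, Col6a5 and Col6a4 follow each other on chromosome 9. Exons of Col10a1, Col9a3 and Col7a1 overlap those of another counted gene (Nt5dc1, Tcfl5 and Mir711), and the library kit keeps no strand, so reads in the overlaps cannot be told apart.

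WT muscle and WT fat were compared first, because they show which chains each tissue makes. Fat held more RNA of the main chains: 24 of 44 chains were lower in muscle than in fat, 8 were higher and 12 did not pass (edgeR quasi-likelihood test, Benjamini-Hochberg adjusted p under 0.05 over all genes). Over all 16863 genes tested 73.5% passed, 31.9% higher in muscle and 41.6% lower, so the chains' share of 72.7% was close to the background. The median log2 difference (muscle minus fat) was −1.54 for the chains and −0.30 for all genes. Type IV chains lay at a median of −2.58, with 5 of 6 lower, and fibrillar chains at −1.66, with 7 lower and 3 higher of 11.

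Per kb of exon and on 1 scale for both tissues, Col3a1 was the most abundant chain of WT fat (403.4 ± 158.5 CPM per kb, SD, n = 4), followed by Col4a1 (261.8 ± 125.2) and Col4a2 (198.9 ± 107.2). The order of these 3 does not hold beyond their spread. In WT muscle Col1a2 (42.5 ± 20.4 CPM per kb, SD, n = 4), Col3a1 (40.7 ± 22.5), Col4a1 (38.8 ± 14.5) and Col4a2 (32.0 ± 13.6) led and lay within each other's spread. The same 6 genes (these, Col1a1 and Col6a1) filled the top ranks in both tissues. Col22a1, a chain known from the junction of muscle and tendon, ran the other way: it was 5.90 ± 0.299 CPM per kb in WT muscle (rank 13) and 0.0408 ± 0.0319 in WT fat (rank 43). Its log2 difference of 7.21 ± 0.47 (SE; edgeR adjusted p = 7.3e-11) was the largest of any chain.

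Col11a2, which shares fibrils with type II collagen, was also higher in muscle (log2 difference 3.68 ± 0.44, edgeR adjusted p = 2.92e-07), as were Col24a1 (3.75 ± 0.52), Col2a1 (3.78 ± 0.94) and Col19a1 (2.80 ± 0.58). Among chains lower in muscle, Col3a1 differed by −3.31 ± 0.40 on the log2 scale (edgeR adjusted p = 3.82e-07) and Col15a1, which links basement membranes to the fibrils around them, by −3.18 ± 0.47. Col6a4 (−4.82 ± 0.88) and Col17a1 (−4.75 ± 1.14) differed most, at low levels in muscle. Col17a1, Col4a5, Col4a6, Col9a2 and Col9a3 were high in the WT fat libraries with epithelial markers. Without those libraries, among WT libraries with Y-linked transcripts, the log2 difference of Col9a2 turned to 3.48 and that of Col4a6 to 1.22.

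**Figure D1:**
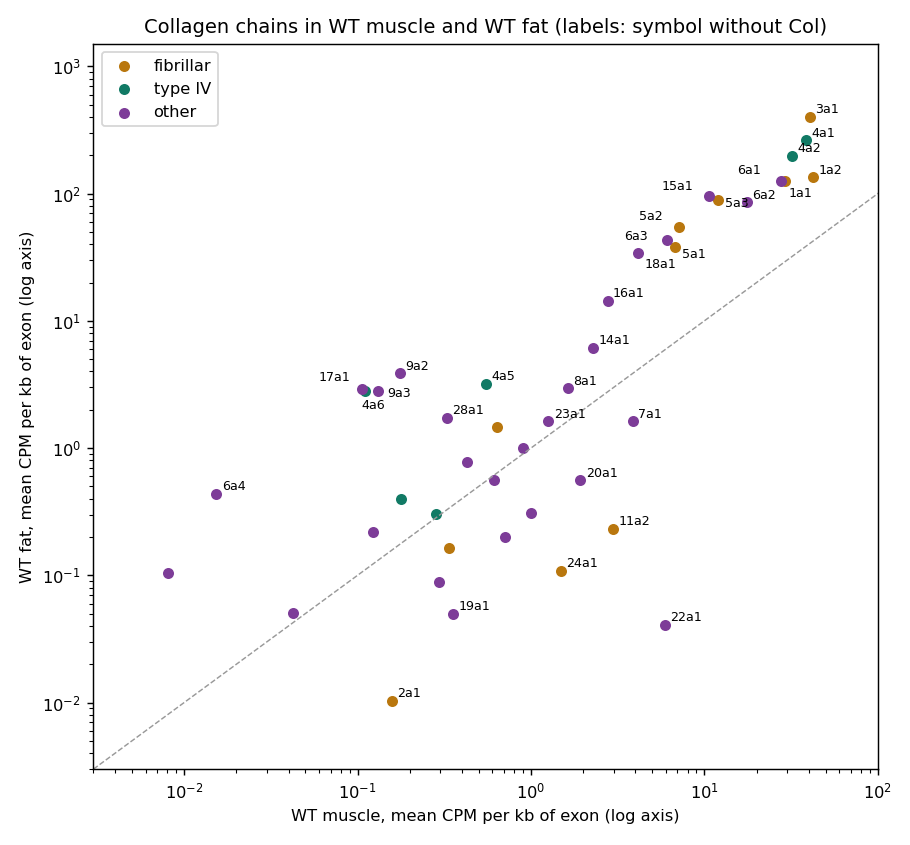
Mean normalised count per kb of exon of each of the 44 chains in WT muscle (horizontal, log axis) and WT fat (vertical, log axis), 4 libraries each, coloured by class; the dashed line marks equal levels. The abundant chains lie above the line, with Col3a1 at 40.7 in muscle and 403.4 in fat, and Col22a1 lies far below it, at 5.90 and 0.0408.

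The comparison of HL1002P with WT fat asked whether collagen RNA differs in fat of the progeroid mutant. Most of the abundant chains were lower. Of the 40 chains tested (Col2a1, Col9a1, Col10a1 and Col19a1 had too few counts in fat), 14 were lower in HL1002P, 3 were higher and 23 did not pass. Over all 16266 genes tested 31.8% passed, 17.3% higher and 14.5% lower, and 42.5% of the chains passed. The median log2 fold change was −1.39 over the chains, with 32 of 40 below 0, and −0.07 over all genes tested. Counts of all chains together were 1.80%, 1.74%, 0.802% and 1.36% of the counts in WT 1 to 4 and 0.297%, 0.442%, 0.470% and 0.754% in HL1002P 1 to 4, so the groups did not overlap. In whole tissue, fewer cells of a type and less RNA per cell cannot be told apart.

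Among fibrillar chains 6 of 10 tested were lower, 1 was higher and 3 did not pass, with a median of −1.42. Col1a1, the main chain of type I collagen, was 1515, 1339, 538.5 and 1080 CPM in WT 1 to 4 and 171.1, 297.1, 308.5 and 500.9 CPM in HL1002P 1 to 4. Every HL1002P library lay below every WT library, with WT 3 the lowest of WT and HL1002P 4 the highest of HL1002P. Its log2 fold change was −1.81 ± 0.41 (SE; edgeR adjusted p = 0.0121). Its partner Col1a2 was 1363, 1251, 542.9 and 1154 CPM in WT and 364.4, 482.8, 488.5 and 624.8 CPM in HL1002P. Here HL1002P 4 exceeded WT 3, and the fold change was smaller, −1.14 ± 0.32 (adjusted p = 0.0243). Col3a1, the fibril chain of soft and elastic tissue, was 4149, 4429, 1505 and 3356 CPM in WT and 771.5, 1088, 955.2 and 1645 CPM in HL1002P. The groups again overlapped through WT 3 and HL1002P 4, and its fold change was −1.59 ± 0.41 (adjusted p = 0.0174).

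Type V chains, which seed type I fibrils and set their width, fell together. Col5a1 went from 479.4 ± 196.0 to 133.0 ± 54.5 CPM (SD, n = 4 each; log2 fold change −1.85 ± 0.43), Col5a2 from 540.0 ± 218.6 to 162.8 ± 66.7 CPM (−1.73 ± 0.40) and Col5a3 from 823.5 ± 398.8 to 228.2 ± 99.0 CPM (−1.85 ± 0.47), with edgeR adjusted p between 0.0125 and 0.0169. In none of these did an HL1002P library reach a WT library. Col11a2 moved the other way. It was 1.79, 2.37, 3.14 and 1.49 CPM in WT and 4.76, 8.40, 12.2 and 3.84 CPM in HL1002P, every HL1002P library above every WT one. Its log2 fold change was 1.73 ± 0.41 (adjusted p = 0.0139).

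Among type IV chains the pair found in nearly all basement membranes fell. Col4a1 was 3576, 3732, 1298 and 1771 CPM in WT and 385.3, 582.5, 554.3 and 985.9 CPM in HL1002P, with no overlap, and the change was −2.05 ± 0.46 on the log2 scale (edgeR adjusted p = 0.0113). Col4a2, its neighbour and partner, was 2704, 2918, 883.2 and 1183 CPM in WT and 228.0, 347.3, 338.1 and 679.3 CPM in HL1002P, also without overlap (log2 fold change −2.27 ± 0.48, adjusted p = 0.0103). For both genes WT 1 and WT 2 lay above WT 3 and WT 4. The minor type IV chains did not pass: Col4a3 to Col4a6 had log2 fold changes below 0 and all 6 chains lay between −2.27 and −1.23. Col4a5 and Col4a6 were highest in the libraries with epithelial markers. Col4a5 was 56.7, 48.4, 27.9, 24 and 14.8 CPM in WT 3, WT 4, HL1002P 4, HH 2 and HH 4, and 11.1 and 9.84 CPM in WT 1 and WT 2 against 2.92 to 7.4 CPM in the other mutant libraries. Within each of these sets the WT libraries lay above the mutant ones. Among the libraries with epithelial markers, the marker sums were also higher in WT 3 and WT 4 (1589.9 and 1506.9 CPM). They were 996.5 CPM in HL1002P 4, 675.6 in HH 2 and 442.7 in HH 4. In the other libraries the sums were lower in WT (2.08 and 3.4 CPM) than in the mutants (9.69 to 90.6). The part of epithelial content in Col4a5 was not tested. Col4a6 was 58.6 CPM in WT 3, 52.2 in WT 4, 29.3 in HL1002P 4, 19.9 in HH 2 and 14.5 in HH 4, and 0.443 to 3.10 CPM in the others.

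The type VI chains moved in both directions. Col6a1, Col6a2 and Col6a3, which build the common filament, fell. Col6a1 was 941.1, 949.4, 429.6 and 757.2 CPM in WT and 146.2, 208.2, 248.4 and 458.7 CPM in HL1002P, and fell by 1.54 ± 0.39 on the log2 scale (edgeR adjusted p = 0.0171). Col6a2 was 980.2, 1057, 355.6 and 676.6 CPM in WT and 113.1, 171.1, 207.1 and 366.7 CPM in HL1002P (−1.84 ± 0.45), and Col6a3 was 915.6, 884.6, 317 and 676.9 CPM in WT and 144.3, 162.1, 213.3 and 322.9 CPM in HL1002P (−1.73 ± 0.40). HL1002P 4 lay just above WT 3 in each of these 3 genes. Col6a4 and Col6a5, chains that can take the place of Col6a3, were higher. Col6a4 was 0.155, 5.16, 10.4 and 3.78 CPM in WT and 33.5, 37.1, 47.0 and 16.8 CPM in HL1002P, without overlap (log2 fold change 2.78 ± 0.79, adjusted p = 0.0241). Col6a5 was 2.99, 4.10, 2.94 and 2.14 CPM in WT and 9.78, 9.70, 17.2 and 6.46 CPM in HL1002P, also without overlap (1.83 ± 0.42, adjusted p = 0.0120). Col6a6, next to them on chromosome 9, had a log2 fold change of −1.64 ± 0.61 and did not pass (adjusted p = 0.0585).

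Of the remaining chains, both multiplexins and a fibril-associated chain fell. Col15a1 was 1207, 1171, 346.8 and 742.7 CPM in WT and 107.0, 134.5, 190.7 and 358.8 CPM in HL1002P (log2 fold change −2.13 ± 0.55, edgeR adjusted p = 0.0171), and HL1002P 4 slightly exceeded WT 3. Col18a1, whose end is released as endostatin, was 535.7, 485.9, 168.5 and 190.3 CPM in WT and 40.9, 81.3, 84.3 and 155.2 CPM in HL1002P (−1.93 ± 0.57, adjusted p = 0.0278). Its groups did not overlap. Col16a1, a fibril-associated chain, had the smallest p of the 40: it was 109.3, 89.2, 152.2 and 96.1 CPM in WT and 12.4, 18.3, 23 and 60.4 CPM in HL1002P (−1.97 ± 0.41, adjusted p = 0.00956). WT 3 was the highest WT library for Col16a1, unlike for the chains above. None of the network, membrane-spanning or anchoring chains passed in HL1002P fat.

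Several chains that did not pass in fat had levels set by single libraries. Col17a1, a chain of the anchoring plaques of epithelia, was 37.7 and 57.1 CPM in WT 3 and WT 4, 28.5 in HL1002P 4, 12.8 in HH 2 and 10.7 in HH 4, and at most 3.98 CPM in the other 7 fat libraries. The libraries with high Col17a1 are again those with epithelial markers. Col9a2, a cartilage fibril-associated chain, was 51.6, 16.3 and 13.9 CPM in WT 3, WT 4 and HL1002P 4 and at most 2.35 CPM elsewhere, and Col7a1 was 63, 23.4 and 17.6 CPM in these 3 and at most 11.2 elsewhere. Col8a1, a network chain of vessel walls, was 16.4 to 26.5 CPM in WT, 2.38 to 6.97 in HL1002P 1 to 3 and 41.3 in HL1002P 4. In HH it was 5.20 to 7.24 CPM, below every WT library, with a log2 fold change of −1.92 ± 0.69 (SE) that missed the threshold (edgeR adjusted p = 0.0675). Col28a1 was 17.1 and 16.3 CPM in WT 1 and WT 2 and 3.27 to 7.56 CPM in the other 10 fat libraries.

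Chains with little difference in fat included Col23a1, a membrane-spanning chain, at 13.7 ± 4.55 CPM in WT, 13.4 ± 1.80 in HL1002P and 13.6 ± 1.83 in HH (SD, n = 4 each), with log2 fold changes of −0.03 ± 0.22 and −0.01 ± 0.22 (SE). Col12a1 and Col14a1, both fibril-associated, had log2 fold changes of −0.66 ± 0.35 and −0.81 ± 0.46 in HL1002P and −0.17 ± 0.35 and −0.98 ± 0.46 in HH. Of the chains of low level, Col20a1, Col22a1, Col24a1 and Col26a1 lay between −0.85 and 0.83 in both mutants. Col8a2, Col11a1, Col25a1 and Col9a3 lay between −2.68 and −0.83. The 4 chains left untested were at most 3.83 CPM (Col9a1), 1.24 CPM (Col10a1), 0.509 CPM (Col19a1) and 0.218 CPM (Col2a1) in any fat library.

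**Figure D2:**
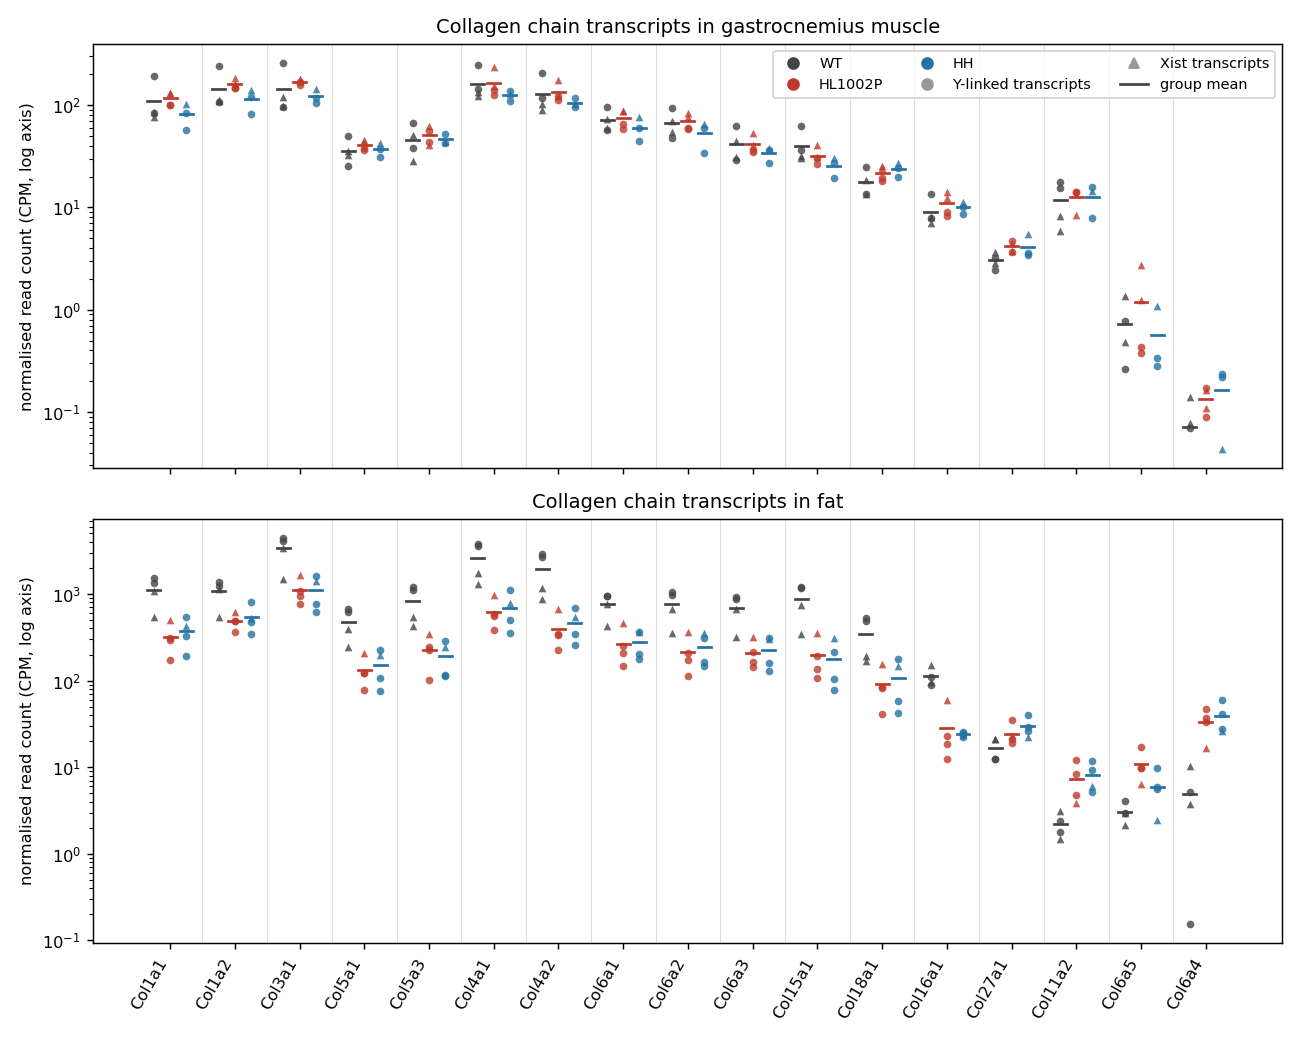
Normalised read count (CPM, log axes) of 17 chains in each muscle library (top) and fat library (bottom), coloured by genotype; bars are group means, circles are libraries with Y-linked transcripts and triangles those with Xist, and a value of 0 is not drawn. In fat the mutant points lie mostly below WT for Col1a1 to Col16a1, for example Col4a1 at 385.3 to 985.9 in HL1002P and 1298 to 3732 in WT, and above WT for Col11a2 and Col6a4.

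The 17 calls in HL1002P fat changed in number with the libraries used. Leaving out single libraries gave counts of 15 without WT 1, 14 without WT 2, 20 without WT 3, 16 without WT 4, 11 without HL1002P 1, 10 without HL1002P 2, 13 without HL1002P 3 and 20 without HL1002P 4. Col1a1, Col4a1, Col4a2, Col5a1, Col5a2, Col6a2, Col6a3, Col6a5, Col11a2 and Col16a1 passed in all 8 of these fits. Without the 5 fat libraries with epithelial markers 24 chains passed, and the fold changes of the abundant chains were larger (Col4a2 −3.20, Col15a1 −3.04). Only WT 1 and WT 2 stood for WT in that fit. The share of all genes passing in these alternative fits is not given here. Their counts therefore do not single out the chains. Among libraries with Xist, 2 WT and 1 HL1002P, the chain median was −0.49. That fit cannot decide which chains pass, since the lone HL1002P library is assumed there to vary like the others. When the mean level of the lymphocyte list entered the fit as a covariate, no chain and none of the 16266 genes passed, the chain median was −0.81, and Col6a4 turned to −0.74. Genotype and lymphocyte marker level do not overlap between these groups, so they cannot be told apart in fat.

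HH fat was compared with the same 4 WT libraries, so the 2 mutant comparisons share their controls and are set side by side. Of 40 chains tested, 13 were lower in HH, 3 were higher and 24 did not pass, against 20.8% of all 16266 genes (12.3% higher and 8.59% lower) and 40.0% of the chains. The median log2 fold change was −1.54 over the chains, again with 32 of 40 below 0, and −0.06 over all genes. Of the fibrillar chains 6 were lower and 2 higher of 10 tested, of type IV 2 were lower of 6, and of the others 5 were lower and 1 higher of 24. All chains together held 0.674%, 0.416%, 0.309% and 0.608% of the counts in HH 1 to 4, every one below the lowest WT library at 0.802%.

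Col1a1 was 536.1, 324.2, 194.1 and 424.3 CPM in HH 1 to 4, with HH 1 just under WT 3 at 538.5, and its log2 fold change was −1.60 ± 0.41 (SE; edgeR adjusted p = 0.0242). Col3a1 was 1621, 759.4, 622.3 and 1420 CPM in HH (−1.60 ± 0.41, adjusted p = 0.0237), with HH 1 above WT 3. Col1a2 was 817.5, 475.9, 346.1 and 532.7 CPM in HH (−0.99 ± 0.32, adjusted p = 0.0493), and HH 1 again overlapped WT. HH 1 was thus the highest HH library for the 3 main fibril chains, and HH 3 the lowest. The type V chains fell by 1.67 ± 0.43 (Col5a1), 1.81 ± 0.41 (Col5a2) and 2.11 ± 0.48 (Col5a3) on the log2 scale.

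Col4a1 was 1109, 495.9, 356.3 and 795.4 CPM in HH, and Col4a2 was 684.2, 346.1, 254.8 and 542.8 CPM. All lay below the lowest WT library, with log2 fold changes of −1.91 ± 0.45 (edgeR adjusted p = 0.0188) and −2.07 ± 0.48 (0.0177). Col6a1 was 365.8, 200.9, 179.7 and 366.6 CPM in HH (−1.47 ± 0.39), Col6a2 308.4, 162.3, 149 and 352.5 CPM (−1.66 ± 0.44) and Col6a3 314.5, 159.6, 130.5 and 299.6 CPM (−1.63 ± 0.40). These 3 type VI chains fell without overlap with WT. Col15a1 was 215.1, 78.7, 104.4 and 309.6 CPM in HH (−2.29 ± 0.55, adjusted p = 0.0191), below every WT library. Col18a1 was 178.6, 42.4, 57.5 and 149.5 CPM (−1.69 ± 0.57) and just missed (adjusted p = 0.0544); it passed with DESeq2, in the fit without the libraries with epithelial markers, and without WT 3 or HH 1. Col16a1 was 22.6, 25.2, 24.9 and 23.4 CPM in HH (SD 1.22), against 89.2 to 152.2 in WT. Its log2 fold change of −2.22 ± 0.41 had the smallest p of the chains (adjusted p = 0.0116).

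Of the chains higher in HH fat, Col6a4 was 27.8, 41.4, 60.2 and 26.2 CPM (log2 fold change 2.99 ± 0.80, edgeR adjusted p = 0.0263) and Col11a2 was 5.15, 11.8, 9.18 and 6.01 CPM (1.87 ± 0.42, adjusted p = 0.0159). Both were above every WT library. Col27a1, a fibrillar chain known from cartilage, was 12.4, 12.4, 21 and 21 CPM in WT and 26.4, 40.1, 29.5 and 22.4 CPM in HH (0.83 ± 0.26, adjusted p = 0.0457), without overlap. Col6a5 was 5.90, 9.87, 5.63 and 2.45 CPM in HH and did not pass. Of the 17 chains called in HL1002P fat and the 16 in HH fat, 15 were on both lists. The HL1002P list alone held Col18a1 and Col6a5 and the HH list alone Col27a1, and whether the mutants differ for them was tested next.

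**Figure D3:**
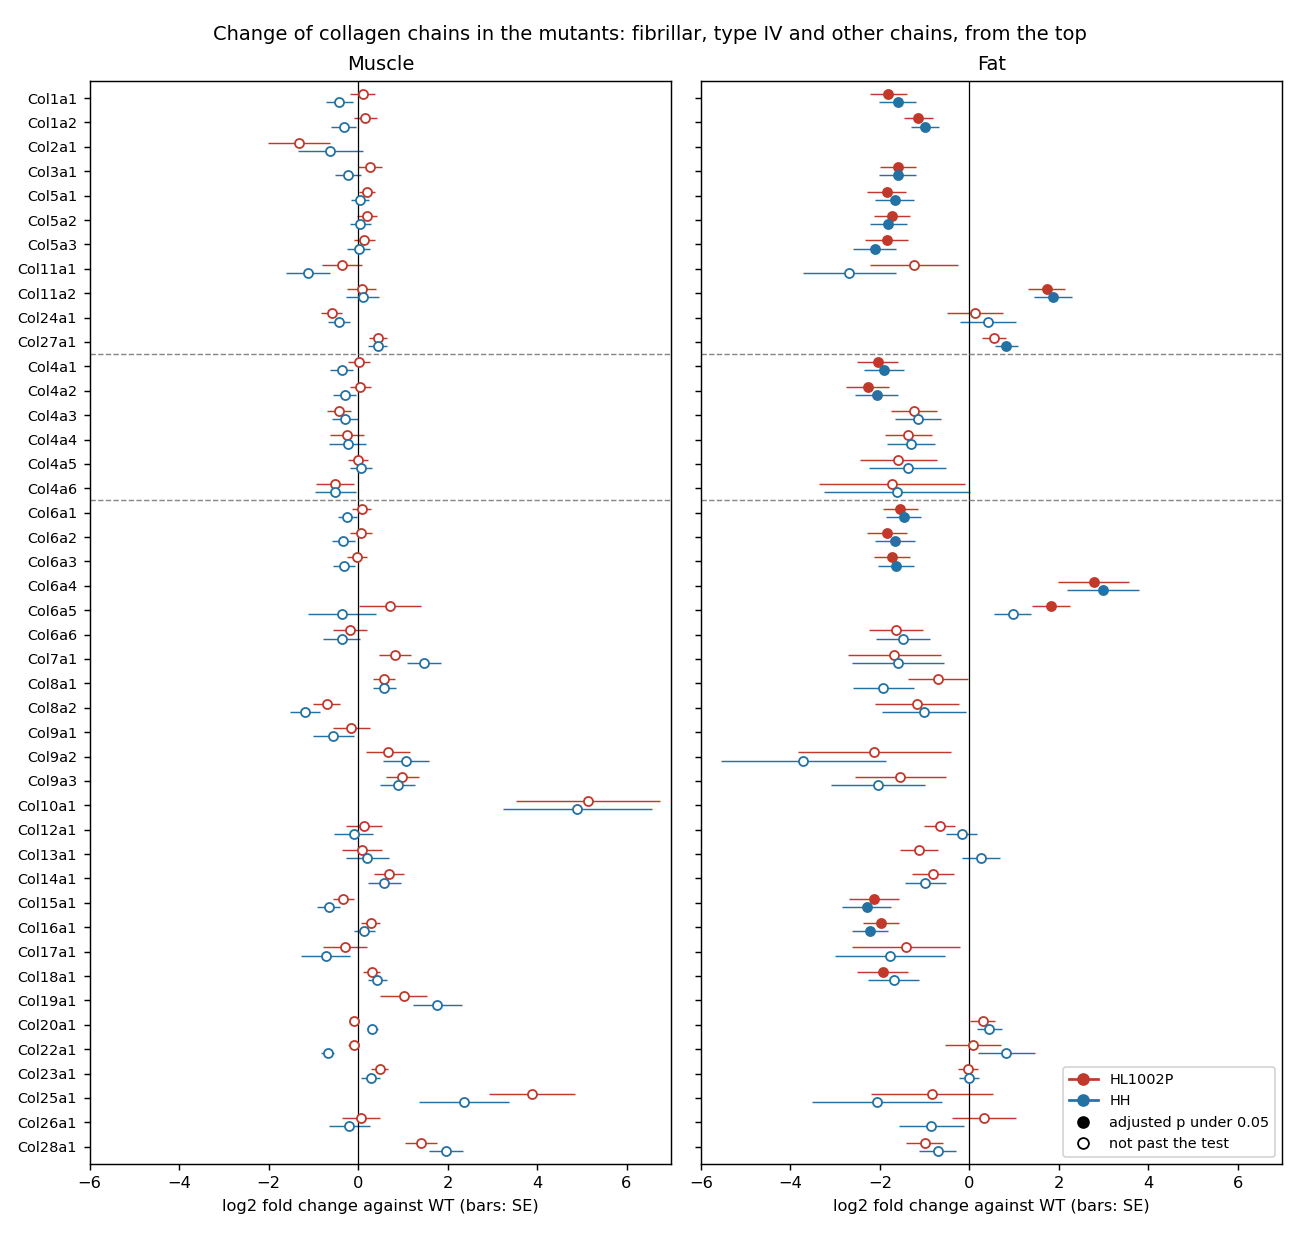
Log2 fold change of each tested chain against WT (horizontal, bars are SE) in muscle (left) and fat (right) for HL1002P (red) and HH (blue); filled symbols passed edgeR's test at an adjusted p under 0.05, and dashed lines divide fibrillar, type IV and other chains. Filled symbols appear in fat alone, 14 lower and 3 higher in HL1002P and 13 lower and 3 higher in HH.

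With 1 library left out, the 16 calls of HH fat became 6 without WT 1, 6 without WT 2, 19 without WT 3, 14 without WT 4, 18 without HH 1, 4 without HH 2, 2 without HH 3 and 16 without HH 4. Col11a2 and Col16a1 passed in all 8 of these fits. Without the libraries with epithelial markers 21 chains passed, and among libraries with Y-linked transcripts 26. These fits are not separate checks: both keep only WT 1 and WT 2 of WT, and their libraries differ only in HH 2. As for HL1002P, these counts stand without the share of all genes passing in the same fits. No chain and no gene passed with the lymphocyte markers as a covariate (chain median −0.81, Col6a4 −0.01). Among libraries with Xist (2 WT, 1 HH) the chain median was −0.94, and that fit cannot decide which chains pass.

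HL1002P and HH fat were then compared directly. Among 16266 genes 0% passed edgeR's test (535 had an unadjusted p under 0.05), and so did 0 of 40 chains, of which 1 had an unadjusted p under 0.05. DESeq2 and limma voom called 0 chains as well. The median log2 difference (HL1002P minus HH) was −0.11. The 1 chain was Col13a1, a membrane-spanning chain, at 0.459, 1.25, 1.34 and 1.94 CPM in HL1002P and 3.61, 2.67, 4.59 and 2.08 CPM in HH. These groups did not overlap, and the difference of −1.38 ± 0.43 (SE) had an edgeR adjusted p of 0.999.

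Of the ratios of chains that share a trimer, that of Col1a1 to Col1a2 set WT fat apart from both mutants, and the others overlapped. These ratios were not tested and are given as a description. Type I collagen holds 2 chains from Col1a1 and 1 from Col1a2. Per kb of exon, the ratio of Col1a1 to Col1a2 counts was 1.0, 0.965, 0.895 and 0.844 in WT fat 1 to 4, 0.424, 0.555, 0.569 and 0.723 in HL1002P fat and 0.591, 0.614, 0.506 and 0.718 in HH fat. Every mutant fat library was below every WT fat library, and the muscle libraries lay at 0.617 to 0.742 in all 3 genotypes. The ratio of Col4a1 to Col4a2 was 1.25 to 1.46 in WT fat, 1.42 to 1.65 in HL1002P fat and 1.36 to 1.58 in HH fat, with overlap. Col6a2 to Col6a1 was 0.565 to 0.760, 0.528 to 0.569 and 0.551 to 0.656 in the same order. Col6a3 to Col6a1 was 0.279 to 0.368, 0.266 to 0.373 and 0.274 to 0.325. Both overlapped as well.

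**Figure D4:**
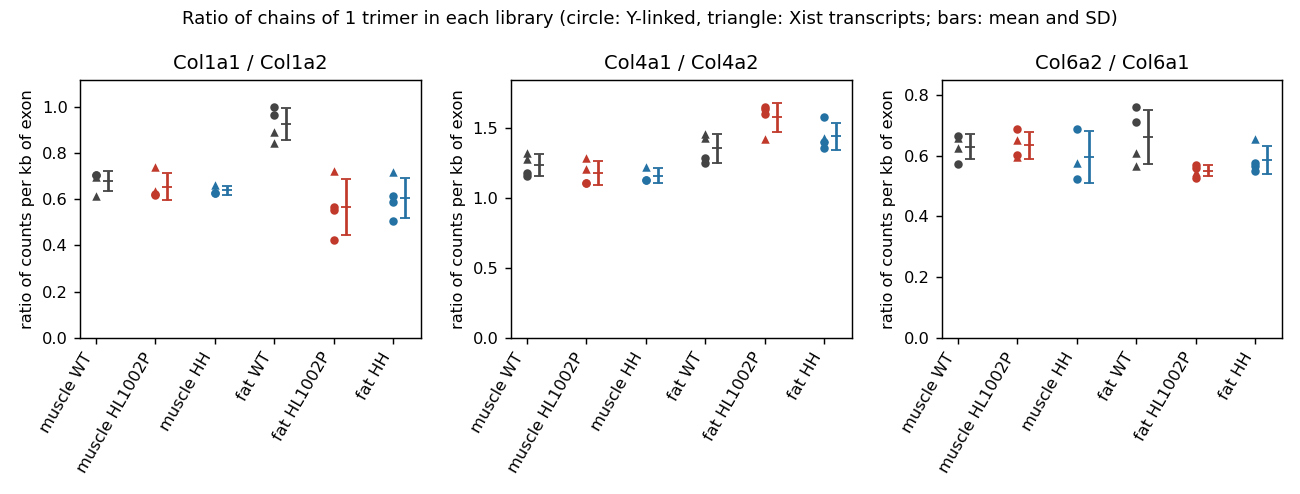
Ratio of counts per kb of exon (vertical, starting at 0) of Col1a1 to Col1a2, Col4a1 to Col4a2 and Col6a2 to Col6a1 in each library by group, with mean and SD; circles are libraries with Y-linked transcripts and triangles those with Xist. The Col1a1 to Col1a2 ratio is 0.844 to 1.0 in WT fat, and 0.424 to 0.742 in all other groups.

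Summed markers of several cell types of fat differed between the groups beside the chains. Summed fibroblast markers (8 genes) were 13434 to 22074 CPM in WT fat, 5812 to 14747 in HL1002P and 5423 to 21638 in HH. Fat-cell markers (8 genes) were 20616 to 42772, 11729 to 22205 and 13865 to 31220 CPM, and endothelial markers (8 genes) 1114 to 1580, 739.5 to 1055 and 872.9 to 1124 CPM, in the same order. Smooth muscle and pericyte markers (8 genes) were 962.3 to 1557 CPM in WT, 337.5 to 987.1 in HL1002P and 559.8 to 806.7 in HH. HL1002P did not overlap WT in the endothelial sum nor HH in the smooth muscle and pericyte sum, and the other sums here overlapped. The lymphocyte markers, all 12 of them detected, were higher in both mutants, and Col6a4 was lowest (0.155 CPM) in WT 1, the library with the lowest lymphocyte sum (67.5). The order did not hold throughout. HL1002P 2 and HL1002P 1 had the highest sums (3593.7 and 3498) with 37.1 and 33.5 CPM, below HH 3 with 60.2 CPM at 3159.5. Within WT, Col6a4 was 5.16 CPM in WT 2 (684.5) and 10.4 in WT 3 (564.8). The part of these cells in the collagen differences was not tested. Summed macrophage markers overlapped between the groups, at 752.5 to 1070 CPM in WT, 676.4 to 1178 in HL1002P and 779.8 to 1813 in HH. Wap, the 1 epithelial marker at 0 in every library, is a milk protein gene, and the other 7 of the 8 epithelial markers were detected in each fat group.

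**Figure D5:**
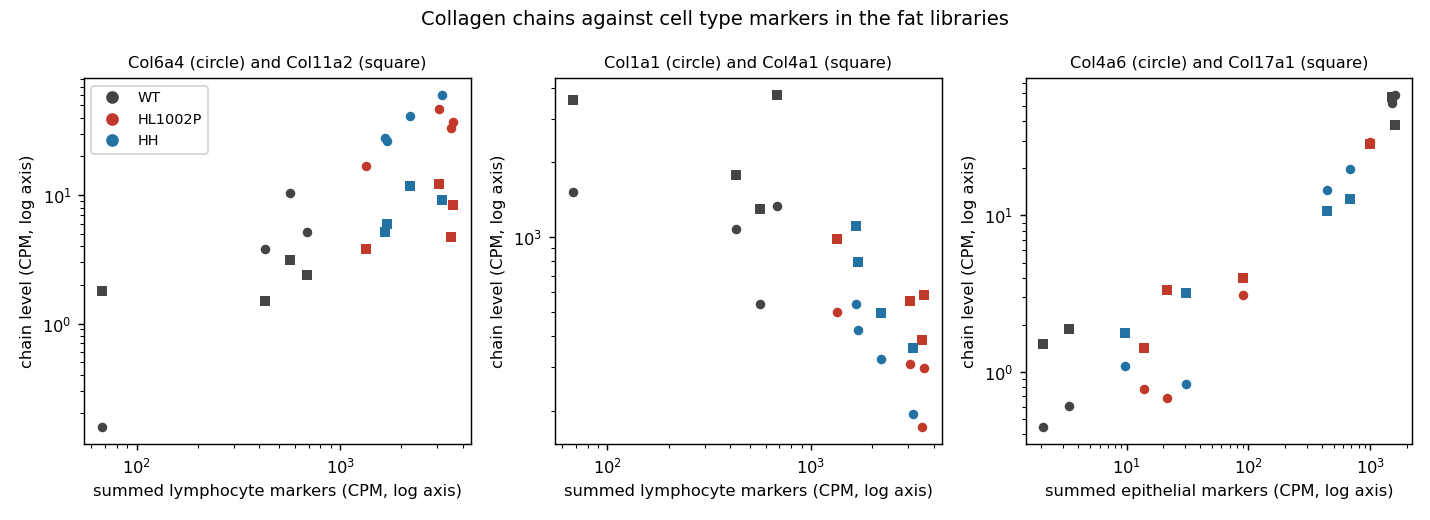
Levels of 6 chains (vertical, CPM, log axes) against summed lymphocyte markers (left and middle) and summed epithelial markers (right; both CPM, log axes) in the 12 fat libraries, coloured by genotype. Col6a4 is 0.155 CPM at the lowest lymphocyte sum (67.5), 60.2 CPM at 3160 and 37.1 CPM at the highest (3593.7). Col4a6 is 14.5 CPM or more in the 5 libraries with epithelial sums of 442.7 or more.

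Promoters of 3 chains are shown because these chains differ in behaviour across the comparisons: Col3a1 and Col5a3 were lower in mutant fat and Col11a2 higher. Each is the 250 bases before the annotated start, from RefSeq (GRCm38.p6), written along the gene, with motif matches in capitals. The windows are chr1:45311288-45311537 (plus strand), chr9:20815068-20815317 (minus strand) and chr17:34038888-34039137 (plus strand).
Col3a1: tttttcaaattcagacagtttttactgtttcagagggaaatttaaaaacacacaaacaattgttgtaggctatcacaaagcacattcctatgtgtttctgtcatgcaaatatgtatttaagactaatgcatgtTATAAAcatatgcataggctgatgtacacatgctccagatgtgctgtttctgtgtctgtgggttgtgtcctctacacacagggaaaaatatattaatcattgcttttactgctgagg
Col5a3: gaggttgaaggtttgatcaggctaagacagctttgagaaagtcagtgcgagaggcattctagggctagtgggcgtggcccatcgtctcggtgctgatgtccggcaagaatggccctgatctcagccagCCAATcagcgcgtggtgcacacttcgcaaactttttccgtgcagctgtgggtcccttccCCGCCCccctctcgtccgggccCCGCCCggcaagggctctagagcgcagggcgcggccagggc
Col11a2: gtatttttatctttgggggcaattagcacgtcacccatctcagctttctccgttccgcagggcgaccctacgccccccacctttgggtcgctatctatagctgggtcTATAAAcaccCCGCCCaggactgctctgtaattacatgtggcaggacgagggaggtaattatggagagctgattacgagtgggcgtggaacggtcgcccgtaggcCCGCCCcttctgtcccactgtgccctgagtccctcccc

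The motif letters were TATAAA for the TATA box, CCAAT for the box of that name and GGGCGG for the GC box. Both strands were searched, and no match in the windows shown overlaps another. The Col3a1 window had a TATAAA at −117 from the start and neither of the others. The Col5a3 window had a CCAAT at −122 and 2 GGGCGG matches, the nearer at −41. The Col11a2 window had a TATAAA at −143 and 2 GGGCGG matches, the nearer at −38. Of the 44 chains 35 had a window, 38 windows in all; GGGCGG was in 57.9% of them and in 32.7% of the 32851 windows of all genes, CCAAT in 34.2% and 33.8%, and TATAAA in 13.2% and 12.4%. The 14 windows of chains lower in HL1002P fat held GGGCGG in 57.1%, CCAAT in 42.9% and TATAAA in 7.1%. They are not 1 per chain: Col6a2 and Col18a1 had 2 windows each, and Col1a1 and Col5a2 had none. A match is a description of the letters and not a bound site.

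Other genes of collagen biology were read from lists drawn up by function. In HL1002P fat, 7 of 19 genes for folding and modifying collagen in the endoplasmic reticulum fell and 0 rose (list median log2 fold change −0.53), where 14.5% of all genes tested were lower and 17.3% higher. They included Lepre1 (P3h1), a prolyl hydroxylase (−1.27 ± 0.28, SE; edgeR adjusted p = 0.0110), and the lysyl hydroxylases Plod3 (−1.40 ± 0.32) and Plod1 (−1.10 ± 0.27). Of 13 tested genes of procollagen processing and cross-linking 6 fell and 0 rose (median −0.96): the lysyl oxidase Loxl2 (−1.49 ± 0.33), Adamts2, which cuts the amino end of procollagen (−1.79 ± 0.42), and Bmp1, which cuts the carboxyl end (−1.15 ± 0.28), were those with the smallest p. Of 12 fibril-binding proteins 8 fell and 1 rose (median −0.97). The matricellular protein Sparc fell by 2.51 ± 0.61 and Tnxb by 1.11 ± 0.28, whereas fibromodulin (Fmod), also on the tendon marker list, rose by 1.91 ± 0.35 (adjusted p = 0.00785).

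Basement membrane partners of type IV collagen fell in 12 of 16 cases with 0 higher (median −1.33), against 14.5% of all genes lower and 17.3% higher, led by perlecan (Hspg2, −2.18 ± 0.44, edgeR adjusted p = 0.00901), Lamb2 (−1.17 ± 0.27) and Lamc3 (−1.72 ± 0.40). Genes that break collagen down were lower too, 5 of 12 with 1 higher. Mrc2, an endocytic collagen receptor, fell by 3.06 ± 0.55 (adjusted p = 0.00775), the gelatinase gene Mmp2 by 1.28 ± 0.31 and cathepsin K (Ctsk) by 1.32 ± 0.34. Mmp8, the neutrophil collagenase, rose by 2.66 ± 0.94 (adjusted p = 0.0495). None of the 5 metalloproteinase inhibitors passed. Of 9 collagen receptors 5 fell, among them Itga1 (−1.02 ± 0.19), Gpr56 (Adgrg1, −1.14 ± 0.27) and Ddr1 (−1.21 ± 0.32), and Lair1, an inhibitory receptor of leukocytes, rose by 1.10 ± 0.31. Of the TGF-beta genes, the latent TGF-beta binding proteins Ltbp4 (−1.14 ± 0.24) and Ltbp3 (−1.70 ± 0.36) fell and the receptor Tgfbr1 rose by 0.43 ± 0.13.

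In HH fat the counts of lower genes were 5 of 19 for folding (Lepre1 −1.0 ± 0.28, Plod3 −1.11 ± 0.32, Serpinh1 −1.47 ± 0.43), 5 of 13 for processing (Loxl2 −1.25 ± 0.32, Adamts2 −1.43 ± 0.42, Bmp1 −0.93 ± 0.27) and 6 of 16 for basement membrane partners (Pxdn −1.51 ± 0.35, Lamb3 −2.22 ± 0.52, Hspg2 −1.64 ± 0.43), with 0 higher in each. Over all genes 8.59% were lower and 12.3% higher in this comparison. Fibril-binding proteins had 1 lower, Sparc (−2.48 ± 0.61), and 1 higher, Fmod (1.57 ± 0.35), of 12. Of the degradation genes 4 of 12 fell, including Mrc2 (−2.68 ± 0.55), Fap (−0.99 ± 0.27) and Ctsk (−1.16 ± 0.34). Timp1 was the 1 of 5 inhibitors that fell (−0.90 ± 0.26). Of the receptors Itga1 (−0.80 ± 0.19) and Itgb1 (−0.60 ± 0.17) fell and Lair1 rose (1.11 ± 0.31), and of the TGF-beta genes Ltbp3 fell (−1.69 ± 0.36) and Tgfbr2 rose (0.59 ± 0.18). No list gene differed between HL1002P and HH fat.

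In muscle no collagen chain passed edgeR's test in any comparison between genotypes. Of 43 chains tested (all but Col6a4), 0 passed for HL1002P against WT, where 10 had an unadjusted p under 0.05; 0 for HH against WT, where 12 had; and 0 for HL1002P against HH, where 2 had. Over all 14580 genes tested edgeR called 0.117%, 0.377% and 0.0206% in these comparisons. DESeq2 called 2, 5 and 0 chains and limma voom 0, 0 and 0. The shares of all genes that these tools called are not given here, so their counts do not single out the chains. The chain medians of the log2 fold change were 0.08, −0.20 and 0.15. All chains together held 0.0881% to 0.193% of the counts of a muscle library.

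The main chains of muscle overlapped between genotypes. Col1a1 was 84.7, 191.1, 76.0 and 85.0 CPM in WT 1 to 4, 101.5, 101.1, 131.2 and 132.8 CPM in HL1002P 1 to 4, and 57.4, 84.4 and 103.3 CPM in HH 1 to 3. Col3a1 was 96.1, 256.8, 119.3 and 97.9 CPM in WT, 156.0, 168.6, 177.5 and 179.1 CPM in HL1002P, and 105.4, 118.8 and 143.7 CPM in HH. For both, WT 2 stood above every other library, and the other 3 WT libraries lay below every HL1002P library. Col1a2, the partner of Col1a1, was 108.1, 243.7, 111.1 and 109.9 CPM in WT, 147.8, 146.5, 185.4 and 161.4 CPM in HL1002P, and 82.2, 121.2 and 140.8 CPM in HH, with WT 2 again highest.

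The type IV and type VI chains of muscle overlapped between genotypes as well. Col4a1 was 143.6, 248.1, 121.7 and 133.3 CPM in WT, 126.1, 140.6, 153.8 and 235.3 CPM in HL1002P, and 136.6, 110.3 and 128.7 CPM in HH. Col4a2 was 118.8, 208.1, 90.1 and 101.9 CPM in WT, 111.2, 123.9, 124.2 and 177.8 CPM in HL1002P, and 118, 95.3 and 102.9 CPM in HH. WT 2 and HL1002P 4 were the highest libraries for both. Col6a1 was 56.6, 95.5, 72.5 and 60.2 CPM in WT, 58.9, 65.8, 87.2 and 88.4 CPM in HL1002P, and 44.3, 59.4 and 76.7 CPM in HH. Col6a2 was 47.5, 93.2, 70.1 and 55.1 CPM in WT, 59.6, 58.2, 83.5 and 77 CPM in HL1002P, and 33.9, 60 and 64.8 CPM in HH. Col6a3 was 29, 62.3, 44.6 and 31.2 CPM in WT, 36.2, 35.2, 53.2 and 40.7 CPM in HL1002P, and 27.2, 36.1 and 38 CPM in HH. In these 3 genes HH 1 was the lowest library and WT 2 the highest.

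Neither multiplexin passed in muscle. Col15a1 was 36.8, 62.7, 31.6 and 30.2 CPM in WT, 26.3, 30.2, 40.4 and 31.4 CPM in HL1002P, and 19.3, 27.1 and 30.1 CPM in HH. Every HH library lay below every WT one, by a small margin (log2 fold change −0.66 ± 0.25, SE; edgeR adjusted p = 0.225). Col18a1 was 13.6, 25.1, 18.5 and 13.5 CPM in WT, 18.1, 19.2, 25.6 and 24.2 CPM in HL1002P, and 19.9, 24.5 and 26.9 CPM in HH. Its groups overlapped, and its log2 fold change was 0.30 ± 0.20 in HL1002P and 0.43 ± 0.21 in HH (edgeR adjusted p = 0.631 and 0.346).

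By smallest p, Col28a1, a chain known from peripheral nerve, came first in HH muscle. It was 1.37, 0.940, 0.467 and 0.698 CPM in WT, 1.07, 2.37, 2.38 and 3.42 CPM in HL1002P, and 3.72, 3.36 and 3.12 CPM in HH. HH lay above every WT library and HL1002P overlapped through its replicate 1. Its log2 fold change was 1.96 ± 0.38 in HH (SE; edgeR adjusted p = 0.0553) and 1.41 ± 0.36 in HL1002P (adjusted p = 0.253). Col7a1, the anchoring fibril chain, was 35.5, 18, 16 and 20.9 CPM in WT, 59.5, 50.6, 21.8 and 28.8 CPM in HL1002P, and 94.9, 52.3 and 41.4 CPM in HH (HH 1.48 ± 0.38, adjusted p = 0.0950), with all HH libraries above WT. Col22a1 was 34.7, 32.6, 31.4 and 35.0 CPM in WT, 23.5, 34.0, 34.4 and 32.6 CPM in HL1002P, and 18, 20.4 and 24.4 CPM in HH (−0.68 ± 0.15, adjusted p = 0.0642). All HH values were below all WT values, and HL1002P 1 was the 1 HL1002P library below WT.

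In HH muscle Col28a1 passed with DESeq2, with no filter on low counts, with the replicate block, with sex as a covariate and in a fit of HH and WT alone. The replicate block called 3 chains (Col7a1, Col19a1 and Col28a1), sex as a covariate 3 (Col7a1, Col22a1 and Col28a1), and DESeq2 these 4 and Col8a2. The share of all genes passing in each of these fits is not given here, so the counts do not single out the chains. Col8a2, a network chain, had −1.19 ± 0.33 (SE; edgeR adjusted p = 0.121) in HH, and Col19a1, a fibril-associated chain, 1.77 ± 0.55 (adjusted p = 0.145). Tendon markers (9 genes) summed to 205.2 to 429.4 CPM in WT, 218.4 to 331.4 in HL1002P and 134.0 to 200.6 in HH muscle, with HH below every WT library. Fmod, a member of that list, was −1.75 ± 0.34 in HH (adjusted p = 0.0553). The part of tendon in the HH values was not tested. A fit with these markers as a covariate passed 0 chains, but so did the main edgeR fit, so that count cannot show it.

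In HL1002P muscle the smallest p belonged to Col25a1, a membrane-spanning chain of nerve and muscle, at 0.133, 0.331, 0 and 0.279 CPM in WT and 7.92, 0.677, 2.05 and 1.07 CPM in HL1002P. All HL1002P libraries lay above WT and replicate 1 held most of the rise (log2 fold change 3.89 ± 0.96, SE; edgeR adjusted p = 0.236). Col10a1, the chain of growth cartilage, was 2.25 CPM in HL1002P 1 and at most 0.374 in the other HL1002P libraries (log2 fold change 5.13 ± 1.61, adjusted p = 0.310). In WT it was at most 0.0465 CPM. HH muscle held 0.815, 0.0398 and 0.845 CPM of Col10a1 and 2.05, 0.258 and 0.737 CPM of Col25a1. Both chains overlapped WT there through HH 2. HL1002P 1 and HH 1, the muscle libraries with the highest Col19a1 (4.78 and 5.61 CPM), also had the highest epithelial sums in muscle, 157.2 and 49.3 CPM, from Krt18 (110.4 and 33.3 CPM) and Krt8 (44.7 and 15), with Krt5, Csn2 and Wap at 0. Their part in these values was not tested. On the lower side, Col24a1 (−0.59 ± 0.23, adjusted p = 0.410), Col8a2 (−0.70 ± 0.30, adjusted p = 0.458) and Col2a1 (−1.32) had the smallest p.

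Most of the other muscle chains differed little or were of low level. Col8a1 was 4.12 to 7.21 CPM in WT, 5.42 to 11.3 in HL1002P and 6.59 to 10.1 in HH, with overlap. Col20a1 was 6.13 to 6.36 CPM in WT, 5.35 to 6.68 in HL1002P and 7.24 to 8.13 in HH, above every WT library. Neither passed. The type V chains Col5a1, Col5a2 and Col5a3 had log2 fold changes of 0.19, 0.20 and 0.14 in HL1002P and 0.05, 0.05 and 0.01 in HH, each smaller than or close to its SE. Col11a2, which rose in mutant fat, was 11.8 ± 5.67 CPM in WT muscle, 12.6 ± 2.74 in HL1002P and 12.7 ± 4.25 in HH (SD). Col16a1, which fell in mutant fat, was 9.10 ± 2.93, 11 ± 2.83 and 10.0 ± 1.30 CPM in the same order. Col23a1 was 4.50 ± 0.495 CPM in WT and 6.26 ± 0.763 in HL1002P without overlap (log2 fold change 0.48 ± 0.19, SE; edgeR adjusted p = 0.428). Col6a4, left untested, averaged 0.0718, 0.134 and 0.165 CPM.

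HL1002P and HH muscle differed at an unadjusted p under 0.05 in Col22a1 (log2 difference HL1002P minus HH 0.57 ± 0.15, SE; edgeR adjusted p = 0.572) and Col20a1 (−0.40 ± 0.12, adjusted p = 0.906). Of the collagen-related lists, Mmp8 in HH was the 1 gene past the test in muscle. Mmp8 was 0.0301 ± 0.0239 CPM in WT (SD, n = 4), 0.654 ± 0.0329 CPM in HH (n = 3) and 0.460 ± 0.347 CPM in HL1002P (n = 4). Its log2 fold change was 4.42 ± 0.78 in HH (SE, edgeR adjusted p = 0.0315) and 3.90 ± 0.77 in HL1002P (adjusted p = 0.106). The WT level lay near the floor, so Mmp8 met the filter on low counts only through the mutant libraries. Both fold changes therefore rest on few counts.

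Whether the mutants' effects differ between tissues was tested as an interaction over genes averaging 1 CPM or more in muscle and in fat, among them 30 of the chains. Libraries were treated as independent here and in the test of WT muscle against WT fat. The labels do not tie the muscle and fat of 1 mouse, so any such pairing is ignored. For HL1002P the effect differed in 15 of 30, with 14 more positive in muscle than in fat and 1, Col11a2, more negative (−1.72 ± 0.57, SE; edgeR adjusted p = 0.0413). Of 11870 genes 19% passed, 8.9% more positive in muscle and 10.1% more negative. The largest were Col28a1 (2.33 ± 0.57), Col4a2 (2.25 ± 0.55), Col16a1 (2.2 ± 0.49), Col18a1 (2.16 ± 0.62), Col4a1 (2.0 ± 0.52) and Col5a1 (1.97 ± 0.47), with adjusted p from 0.0121 for Col16a1 to 0.0257 for Col18a1. Col1a1 (1.83 ± 0.52), Col3a1 (1.78 ± 0.51), Col5a2, Col5a3, Col6a1, Col6a2, Col6a3 and Col15a1 passed as well. For HH the effect differed in 5 of 30, all more positive in muscle: Col16a1 (2.29 ± 0.50, adjusted p = 0.0179), Col28a1 (2.59 ± 0.59), Col5a3 (2.06 ± 0.55), Col5a2 (1.80 ± 0.49) and Col5a1 (1.65 ± 0.49). Of all genes 7.39% passed there, 3.35% more positive and 4.04% more negative.

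The interaction counts moved with single libraries. For HL1002P the count was 6 without fat WT 1, 6 without fat HL1002P 1, 7 without fat HL1002P 2 and at least 10 without any other library. For HH it was 1 without muscle HH 1, 2 without any 1 of muscle WT 1, 3 or 4, muscle HH 3, fat WT 1 or 2 and fat HH 2 or 3, and 8, 9 and 12 without muscle WT 2, fat HH 1 and fat WT 3. Col16a1 passed in each of these fits for both mutants. With the replicate block 8 chains differed for HH.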

How the data were processed

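Whole gastrocnemius and fat were sequenced as RNA in 23 libraries of 6 groups. The authors deposited 1 table of raw counts per gene for 24062 genes, made with TopHat2 2.0.14, Bowtie2 2.2.6 and featureCounts 1.4.6 on mm10, per the submitters' processing notes. The annotation, the strand setting and the treatment of reads with several hits are not given in the sources used here. Libraries were made with a TruSeq v2 kit, per the labels' protocols.

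Counts were TMM-normalised and tested with edgeR 4.0.16 (R 4.3.3; filterByExpr by group, quasi-likelihood F-test, Benjamini-Hochberg adjustment over all genes, threshold 0.05), in 1 fit per tissue over all its genotypes. Each adjusted p printed is from edgeR, and each SE is the fold change divided by the root of its F. CPM values are on the scale of 1 tissue, and WT tissue and interaction values come from 1 fit of all 23 libraries. DESeq2 1.42.0 and limma 3.58.1 (voom), other filters, a replicate block, covariates, subsets by sex transcripts and leaving out each library were the alternatives. The fits without the epithelial-marker libraries and with Xist libraries alone were added after seeing the data. The code was tested on simulated data. The chains, lists and tests were chosen with earlier results of these data known. Given by library were Col1a1, Col1a2, Col3a1, Col4a1, Col4a2, Col6a1, Col6a2, Col6a3, Col15a1 and Col18a1, with up to 8 further chains past the test in each direction per mutant comparison or, with none past it, the top 3 by p for higher and for lower. Of each list up to 3 genes with the smallest p were named. Other chains, and list genes beyond these 3, were named after their values were seen. For the TGF-beta list no count is given, since not all of its genes are reported here. Depth was 34.1 to 55.3 M counts in muscle and 22.6 to 58.8 M in fat.

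Same-numbered HL1002P and HH muscle libraries deviated together (r 0.285 to 0.381 over 3 pairs), although HH 3 correlated best with HL1002P 4 (r 0.429), a hint from the data and not from the labels. Gene models and coding sequences came from GENCODE (GRCm38) and promoters from RefSeq (GRCm38.p6).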

Additional observations from a re-analysis of the deposited data

Results flagged for a closer look

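Of 137 groups of 4 libraries examined for a library far from the others, 11 had one, and chance flags about 1 in 20. Muscle WT 2 was far above the other WT muscle libraries in Col1a1 (191.1 CPM, next 85.0), Col1a2 (243.7, next 111.1) and Col3a1 (256.8, next 119.3). The same library had the highest share of counts in fibrillar chains (0.0942%, next 0.0405%), type IV chains (0.0493%, next 0.0253%) and all chains (0.193%, next 0.0945%). Muscle HL1002P 1 was far above its group in Col10a1 (2.25 CPM, next 0.374) and Col19a1 (4.78, next 1.24) and far below it in Col22a1 (23.5, next 32.6). The ratio of Col1a1 to Col1a2 per kb was high in muscle HL1002P 4 (0.742, next 0.638) and low in muscle WT 3 (0.617, next 0.697).

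The mutant effect differed between muscle and fat, by the interaction test, in 20 cases. For HL1002P the log2 difference of effects (muscle minus fat) was 2.2 for Col16a1, 1.97 for Col5a1, 2.25 for Col4a2, 2.33 for Col28a1, 1.86 for Col5a2, 2.0 for Col4a1, 1.92 for Col5a3, 1.84 for Col6a2, 1.83 for Col1a1, 1.78 for Col3a1, 2.16 for Col18a1, 1.64 for Col6a3, 1.55 for Col6a1, 1.73 for Col15a1 and −1.72 for Col11a2. For HH it was 2.29 for Col16a1, 2.59 for Col28a1, 2.06 for Col5a3, 1.8 for Col5a2 and 1.65 for Col5a1.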

How the results depend on the processing

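In muscle, where edgeR called 0 chains, DESeq2 called 2 in HL1002P and 5 in HH. In HH muscle 1 chain passed with no filter on low counts, 1 when HH and WT alone were fitted, 3 with the replicate block and 3 with sex as a covariate. In fat, 0 chains passed in either mutant with lymphocyte markers as a covariate, and 26 passed in HH among libraries with Y-linked transcripts. The covariate turned Col6a4 to −0.74 in HL1002P and −0.01 in HH. Among libraries with Y-linked transcripts the WT tissue difference turned to 3.48 for Col9a2 and 1.22 for Col4a6. The HH interaction count of 5 became 10 with DESeq2, 3 with limma voom, 3 with no filter, 8 with the replicate block and 10 among libraries with Y-linked transcripts. Leaving out single libraries gave 10 to 20 chains in HL1002P fat, 2 to 19 in HH fat, 6 to 20 for the HL1002P interaction and 1 to 12 for that of HH. The number of all genes passing can move with these settings too and is not given here, so the counts do not single out the chains. The cause of these changes was not tested.

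Other counts stayed within 1.5 times. The replicate block gave 18 chains in each mutant against WT fat. Outside HL1002P and HH muscle, same-numbered libraries shared no common deviation (r −0.375 to 0.627), so the block pairs them by number alone. Fits of Xist libraries had 1 mutant library in fat, so only their chain medians are given. Chains and list genes under about 1 CPM rest on few counts.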
